A study of Mus musculus with 9 samples.

Results

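The collagen gene family was taken as every gene whose name is Col, a number, the letter a and a second number, which gave 44 of the 55468 genes in the deposited table. They comprised 11 fibrillar collagens, 8 basement membrane collagens (collagen IV and the multiplexins Col15a1 and Col18a1) and 25 other collagens. The tissue was mouse intestinal tract from a colitis model driven by dextran sulfate sodium (DSS), a sulfated polysaccharide that damages the mucosa when mice drink it. DSS was offered from day 18 in all groups except C, and each of the 9 groups had 1 library. At day 28, R was on the normal diet, 1K lacked methionine, 2K lacked tryptophan and niacin, and 3K lacked all of these nutrients. At day 33, RR had stayed on the normal diet, while 1KR, 2KR and 3KR had been moved at day 28 from the 1K, 2K and 3K diets to the normal diet. C was on the normal diet without DSS and was collected at day 34. The sources used here do not give strain, sex or age, nor whether a library holds RNA of 1 animal or of several. With 1 library per group, a difference between 2 libraries has no replicate check, and every fold below describes those libraries.

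Collagens are secreted proteins in which chains of repeated glycine-X-Y triplets wind into a triple helix. Fibrillar collagens assemble into the fibrils that give the gut wall its tensile strength and are made mostly by fibroblasts and smooth muscle cells. Collagen IV forms the sheet-like network of basement membranes beneath epithelium and around vessels and muscle cells, and other collagens decorate fibrils, anchor epithelium, build beaded filaments or span the cell membrane.

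Levels are given in FPKM, fragments per kilobase of transcript scaled by the mapped fragments, so they can be compared between genes. Of the 44 genes, 26 averaged at least 1 FPKM over the 9 libraries (8 fibrillar, 5 basement membrane and 13 other), and 15 stayed under 1 FPKM in every library. The depth, estimated from the smallest FPKM steps, ran from 13.8 M sequenced fragments in 3KR to 30.0 M in 2KR. All 10 genes of an epithelial marker list and all 10 of a smooth muscle list averaged at least 1 FPKM, with summed levels of 2549 to 5971 and 459.7 to 1779 FPKM. RNA of neighbouring organs was high in 2K and 3K: the 12 pancreatic acinar markers summed to 37070 FPKM in 2K and 46900 in 3K, against 5.06 to 27.1 in the other 7 libraries. The 12 liver markers summed to 32350 FPKM in 2K, against 92.6 to 356.3 in the other 8, and 9 stomach markers to 16890 FPKM in 2K, against at most 3.37. Several of these markers were listed at 0 elsewhere, such as Tff1 in R, 1K, 3K and RR. The part of this organ RNA in the collagen levels of 2K and 3K was not tested.

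**Figure D1:**
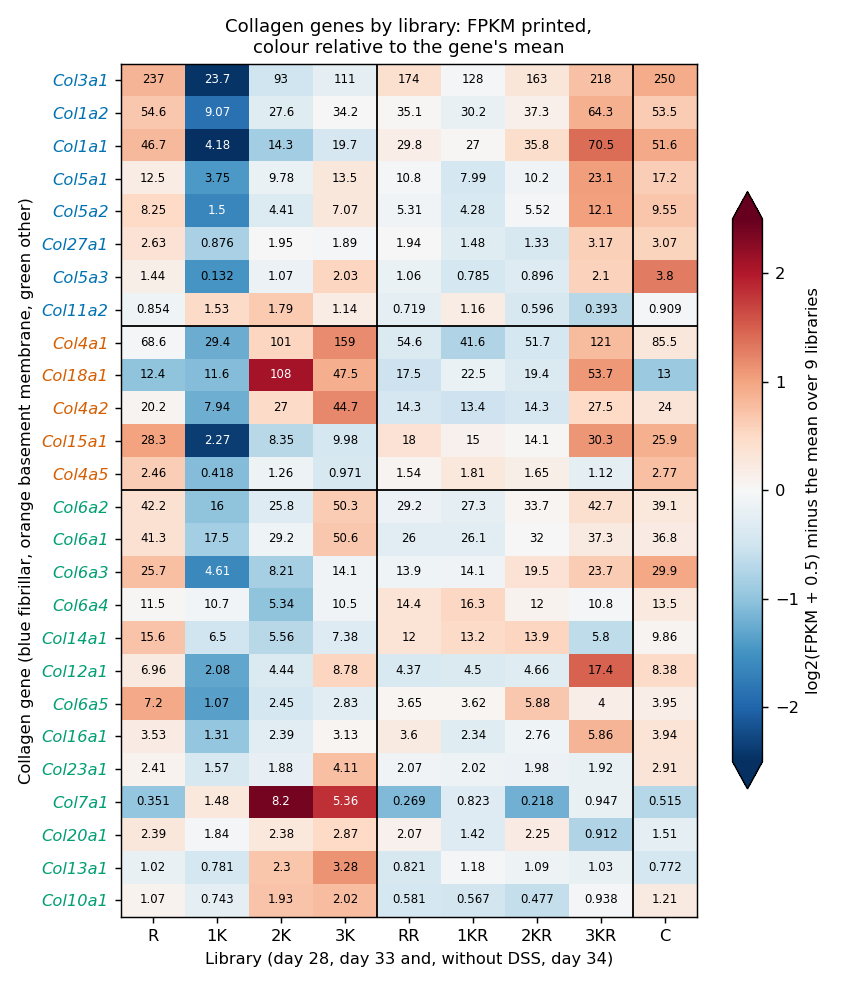
Heat map of the 26 collagen genes averaging 1 FPKM or more (rows, ordered by class and mean) in the 9 libraries (columns), with the FPKM printed and the colour showing log2(FPKM + 0.5) minus the mean over the 9 libraries. The column of 1K is the lowest for 19 of the 26 genes, and Col18a1 and Col7a1 peak in 2K.

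The major fibrillar collagens were high in R, 3KR and C and lowest in 1K. Col3a1 (collagen III, chr1:45311538-45349706 on GRCm38, plus strand), the main partner of collagen I in distensible tissue, stood at 237 FPKM in R, 23.7 in 1K, 93.0 in 2K, 111 in 3K, 174 in RR, 128 in 1KR, 163 in 2KR, 218 in 3KR and 250.2 in C. It had the highest mean of the 44 collagens. 1K lay below the other 8 libraries, and 2K and 3K came next. Col1a1 (chr11:94936224-94953042, plus strand), which encodes the alpha 1 chain of collagen I, was at 46.7 FPKM in R, 4.18 in 1K, 14.3 in 2K, 19.7 in 3K, 29.8 in RR, 27.0 in 1KR, 35.8 in 2KR, 70.5 in 3KR and 51.6 in C. Its 3 lowest libraries were the ones still on a deficient diet, and its highest was 3KR. Col1a2 (chr6:4504814-4541544, plus strand), the alpha 2 chain of the same trimer, was at 54.6 FPKM in R, 9.07 in 1K, 27.6 in 2K, 34.2 in 3K, 35.1 in RR, 30.2 in 1KR, 37.3 in 2KR, 64.3 in 3KR and 53.5 in C. Unlike Col1a1, its 3K level lay above that of 1KR.

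Collagen V, which nucleates fibrils of collagen I, had the same lowest library. Col5a1 ranged from 3.75 FPKM in 1K over a median of 10.8 to 23.1 in 3KR, and Col5a2 from 1.5 in 1K over 5.52 to 12.1 in 3KR. Col5a3, its least abundant chain, ranged from 0.132 FPKM in 1K over 1.07 to 3.80 in C, where it exceeded every DSS library. Col27a1, a fibrillar collagen best known from cartilage, ranged from 0.876 FPKM in 1K to 3.17 in 3KR. Col11a2, a chain of cartilage collagen XI, went the other way, with 0.393 FPKM in 3KR and 1.79 in 2K. The remaining fibrillar genes were low: Col24a1 peaked at 0.805 FPKM in R, Col2a1 at 0.494 in 3KR and Col11a1 at 0.119 in 3K and in C.

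Among basement membrane collagens, the ubiquitous collagen IV chains peaked in 3K rather than in R or C. Col4a1 was at 68.6 FPKM in R, 29.4 in 1K, 101 in 2K, 159 in 3K, 54.6 in RR, 41.6 in 1KR, 51.7 in 2KR, 121 in 3KR and 85.5 in C. Col4a2 was at 20.2 FPKM in R, 7.94 in 1K, 27.0 in 2K, 44.7 in 3K, 14.3 in RR, 13.4 in 1KR, 14.3 in 2KR, 27.5 in 3KR and 24.0 in C. Both had 1K as the lowest library and 2K, 3K and 3KR as the 3 highest. The genes lie head to head on chromosome 8, Col4a1 at chr8:11198423-11312826 on the minus strand and Col4a2 at chr8:11312805-11449287 on the plus strand, and their annotated ends overlap by 22 bases. The sources used here do not say whether the authors' counting used strand, so reads from that overlap cannot be told apart. The ratio of Col4a1 to Col4a2 stayed between 3.11 and 4.42 while Col4a1 itself varied 5.42-fold over the libraries.

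Tissue-restricted collagen IV chains were low. Col4a5, which smooth muscle basement membranes use, ranged from 0.418 FPKM in 1K over 1.54 to 2.77 in C, while Col4a3 and Col4a4 peaked at 0.733 and 0.705 FPKM in 2K and Col4a6 at 0.138 in 3K. These chains also come in head-to-head pairs: Col4a4 and Col4a3 lie 71 bases apart on chromosome 1, and Col4a6 and Col4a5 lie 1308 bases apart on chromosome X.

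The multiplexins, whose chains carry sugar side chains and release antiangiogenic fragments, split apart. Col15a1 (chr4:47208161-47313167, plus strand) was at 28.3 FPKM in R, 2.27 in 1K, 8.35 in 2K, 9.98 in 3K, 18.0 in RR, 15.0 in 1KR, 14.1 in 2KR, 30.3 in 3KR and 25.9 in C. Col18a1 (chr10:77052178-77166548, minus strand), the source of endostatin and abundant in liver, was at 12.4 FPKM in R, 11.6 in 1K, 108 in 2K, 47.5 in 3K, 17.5 in RR, 22.5 in 1KR, 19.4 in 2KR, 53.7 in 3KR and 13.0 in C. The library with the highest Col18a1, 2K, is the one with the highest liver and stomach markers. In 3KR and 3K, which came next, the liver markers summed to 191.7 and 271.6 FPKM, and the part of the liver RNA was not tested. The ratio of Col18a1 to Col15a1 ran from 0.437 in R to 12.9 in 2K.

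Collagen VI, which forms beaded filaments around cells, was the most abundant of the other collagens. Col6a1 was at 41.3 FPKM in R, 17.5 in 1K, 29.2 in 2K, 50.6 in 3K, 26.0 in RR, 26.1 in 1KR, 32.0 in 2KR, 37.3 in 3KR and 36.8 in C, and Col6a2 followed it at a ratio of Col6a1 to Col6a2 between 0.873 and 1.13. Col6a3, the third classical chain, was at 25.7 FPKM in R, 4.61 in 1K, 8.21 in 2K, 14.1 in 3K, 13.9 in RR, 14.1 in 1KR, 19.5 in 2KR, 23.7 in 3KR and 29.9 in C. It did not keep step with Col6a1. The alternative chains differed among themselves: Col6a5 ranged from 1.07 FPKM in 1K over 3.65 to 7.20 in R, Col6a4 from 5.34 in 2K over 11.5 to 16.3 in 1KR, and Col6a6 peaked at 0.957 in R. Col6a6, Col6a5 and Col6a4 lie in a row on the minus strand of chromosome 9.

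Collagens that sit on the surface of fibrils (FACIT collagens) were moderate. Col12a1, found in dense connective tissue and scars, ranged from 2.08 FPKM in 1K over 4.66 to 17.4 in 3KR. Col14a1 ranged from 5.56 FPKM in 2K over 9.86 to 15.6 in R, with 5.80 in 3KR and 12.0 to 13.9 in RR, 1KR and 2KR. Col16a1 ranged from 1.31 FPKM in 1K to 5.86 in 3KR, and Col20a1 from 0.912 in 3KR to 2.87 in 3K. Of the low FACIT genes, Col22a1, Col9a2, Col9a3, Col19a1 and Col9a1, the highest values were 0.279, 0.283, 0.383, 0.061 and 0.047 FPKM. Col19a1 was listed at 0 in 1K, and Col9a1 in 2K and 3KR.

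Col7a1 (chr9:108953586-108984875, plus strand), whose product forms the anchoring fibrils that tie stratified epithelium to the stroma, was at 0.351 FPKM in R, 1.48 in 1K, 8.20 in 2K, 5.36 in 3K, 0.269 in RR, 0.823 in 1KR, 0.218 in 2KR, 0.947 in 3KR and 0.515 in C. It was highest in 2K and 3K, the libraries with pancreatic RNA, whose part was not tested. 1K came next, with acinar markers summing to 5.87 FPKM. Among the transmembrane collagens, Col13a1 ranged from 0.772 FPKM in C to 3.28 in 3K, Col23a1 from 1.57 in 1K to 4.11 in 3K, Col17a1 (hemidesmosomes) from 0.542 to 1.48 and Col25a1 from 0.075 to 0.548. Of the short-chain network collagens, Col10a1 ranged from 0.477 FPKM in 2KR to 2.02 in 3K, Col8a1 peaked at 1.09 and Col8a2 at 0.932. Col28a1 peaked at 1.63 FPKM in 3K and Col26a1 at 0.628 in 3KR.

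DSS on the normal diet was compared with C, and the day 33 library with the day 28 one. Differences are of log2(FPKM + 0.5), and genes at 1 FPKM or more in either library were counted as measured and as 2-fold apart at a difference of 1. In R against C, 0 of 26 measured collagens were at least 2-fold higher (4.43% over all genes measured) and 1 was lower (3.22%), Col5a3 with a log2 difference of -1.15. The median collagen difference was -0.14, and with values scaled by the median of ratios or to protein-coding genes 1 gene was higher and 1 lower. In RR against C, 0 of 25 were higher (6.71%) and 3 lower (5.81%): Col28a1, Col5a3 and Col6a3 at -1.56, -1.46 and -1.08. The median log2 difference was -0.55, and scaling to protein-coding genes gave 7 lower in place of 3. In RR against R, 0 of 26 were higher (5.42%) and 1 lower (5.29%), Col28a1 at -1.42, or 3 lower after that scaling.

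Across all 8 DSS libraries, C was the highest for 4 of 26 collagens (8.46% of the 17631 genes averaging 1 FPKM or more) and the lowest for 1 (8.31%). The 4 were Col3a1, Col4a5, Col5a3 and Col6a3, and the 1 was Col13a1. Without 3KR, C was the highest for 9 of the 26. Without 2K and 3K it was the lowest for 0. In the full set 3KR was itself the highest library for 8 of the 26. The shares of 8.46% and 8.31% refer to all 8 DSS libraries, and those for the reduced sets are not given.

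At day 28, methionine deficiency (1K against R) went with lower collagen RNA in all 3 classes. Of 28 measured collagens, 19 were at least 2-fold lower, against 8.63% of all genes, and 1 was higher, against 7.17%. The lower genes were 7 of 8 fibrillar (median log2 difference -1.87), 4 of 5 basement membrane (-1.29) and 8 of 15 other collagens (-1.16), while the median of all genes was 0.034. The genes with the greatest differences were Col15a1 at -3.38 (12.5-fold lower in FPKM), Col1a1 at -3.33 (11.2-fold) and Col3a1 at -3.30. The exceptions in the first 2 classes were Col11a2 and Col18a1, and the higher gene was Col7a1 at 1.22, which was no longer 2-fold apart or measured with a pseudocount of 1, a floor of 5 FPKM or scaling to protein-coding genes. The class medians kept their sign under all 6 alternatives, and with no floor they were -0.71 for the basement membrane and -0.34 for the other collagens. Of the markers of neighbouring organs, the acinar list summed to 5.06 FPKM in R and 5.87 in 1K, and the stomach list to 1.62 and 1.82. The liver list summed to 259.2 and 92.6 FPKM, with 9 of 12 markers at least 2-fold lower in 1K (median -2.36). The part of the liver RNA in the collagen difference was not tested.

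1K was the lowest of the 9 libraries for 19 of 26 collagens, against 11.9% of all genes. The collagen share of all FPKM was 0.0206% in 1K and 0.111% in R. Some marker lists of stromal cells were also lower in 1K. Of measured fibroblast markers, 6 of 11 were at least 2-fold lower than in R (median log2 difference -1.39), against 8.63% of all genes. So were 5 of 6 mesothelial markers (-1.49), 2 of 10 smooth muscle markers (-0.65) and 2 of 10 endothelial markers (-0.61). The same held for 5 of 7 adipocyte markers (-2.88, with the other 2 at least 2-fold higher) and 4 of 10 macrophage markers (-0.94). It held for 0 of 5 pericyte markers (-0.54), 0 of 3 markers of interstitial cells of Cajal (-0.775) and 0 of 5 enteric neuron and glia markers (0.03). The 12 fibroblast markers nonetheless summed to 163.2 FPKM in 1K and 161.4 in R, with Fbln1 alone at 125 FPKM in 1K and 68.5 in R. Epithelial markers had a median difference of 0.03 with 0 of 10 genes 2-fold apart. In bulk RNA, fewer cells of a type and less RNA per cell cannot be told apart, and the part of these cell types in the collagen difference was not tested.

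In 2K against R (tryptophan and niacin deficiency), collagens lay on both sides. Of 28 measured collagens, 2 were at least 2-fold higher, against 14.7% of all genes, and 7 lower, against 14.1%. The higher ones were Col7a1 at a log2 difference of 3.35 (23.4-fold in FPKM) and Col18a1 at 3.08 (8.74-fold). The lower ones were Col15a1, Col1a1, Col6a3, Col14a1, Col6a5, Col3a1 and Col6a4, between -1.70 and -1.04. The median was -0.60 for the fibrillar, 0.41 for the basement membrane and -0.49 for the other collagens. Beside the organ RNA of 2K, other marker lists were set against R, with 14.1% of all genes at least 2-fold lower and 14.7% higher. Of 10 smooth muscle markers, 8 were lower and 0 higher (median -1.35). Of 10 epithelial markers, 4 were lower and 1 higher (-0.99), and of 11 fibroblast markers, 1 was lower and 1 higher (-0.51). The part of these in the collagen differences was not tested. Scaling to protein-coding genes outside the organ lists gave 13 lower genes in place of 7, and class medians of -0.92, 0.06 and -0.92. With no floor the medians of the fibrillar and other collagens were -0.36 and -0.14, and with a floor of 5 FPKM -0.97 and -0.87.

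Lack of all these nutrients (3K against R) gave 5 of 29 collagens higher, against 11.6% of all genes, and 6 lower, against 13.4%. Scaling to protein-coding genes turned this split into 4 higher and 8 lower. Col7a1 (2.78), Col18a1 (1.90), Col13a1 (1.31), Col4a1 (1.21) and Col4a2 (1.13) were higher on the log2 scale. Col15a1 (-1.46), Col1a1 (-1.22), Col6a5 (-1.21), Col3a1 (-1.09), Col14a1 (-1.03) and Col4a5 (-1.01) were lower. The median was 1.13 for the basement membrane, -0.30 for the fibrillar and 0.27 for the other collagens. With no floor the basement membrane median was 0.235 and that of the other collagens turned to -0.0028. With a floor of 5 FPKM the fibrillar median was -0.67 and that of the other collagens 0.06, and scaling to protein-coding genes gave -0.46 and 0.07. Endothelial markers were higher as well, 7 of 10 at least 2-fold (median 1.26, summed 188.3 against 67.1 FPKM), against 11.6% of all genes. So were 5 of 8 enteric neuron and glia markers (1.31) and 2 of 5 pericyte markers (0.51), and 0 genes of these lists were lower. Of the epithelial markers, 2 of 10 were lower (-0.73) and 0 higher. The part of these cell types and of the pancreatic RNA was not tested.

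**Figure D2:**
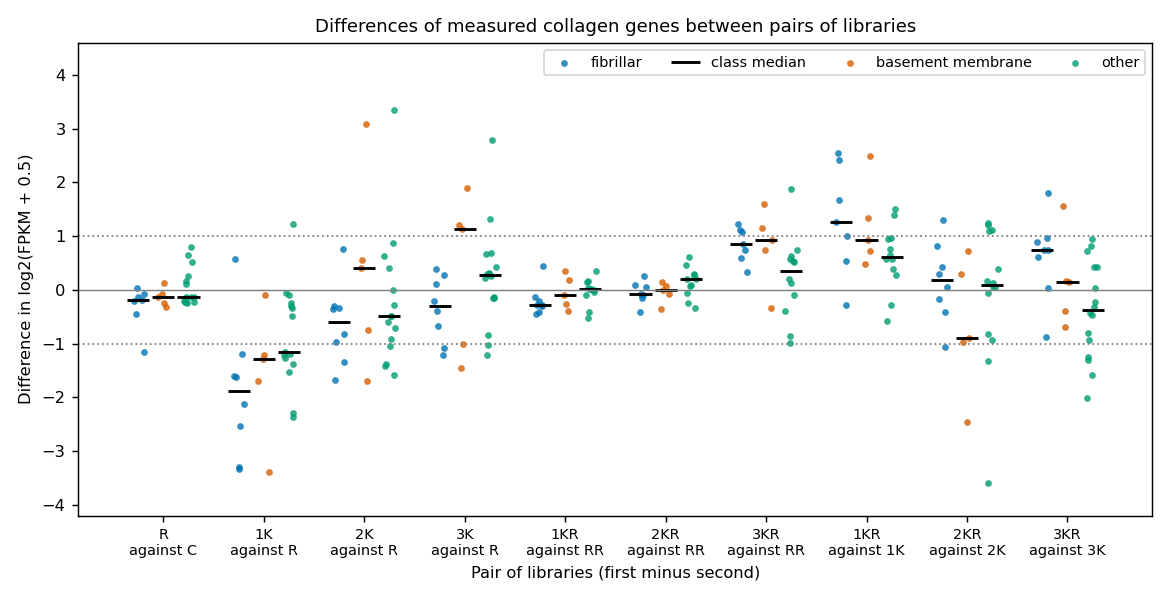
Difference in log2(FPKM + 0.5) of each measured collagen (points, coloured by class, spread sideways for legibility) in 10 pairs of libraries, first minus second. Black bars are class medians and dotted lines mark a 2-fold difference. The fibrillar median is -1.87 in 1K against R and 1.26 in 1KR against 1K.

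At day 33, after 5 days back on the normal diet, 1KR and 2KR had no collagen 2-fold away from RR, and 3KR stood above it. In 1KR against RR, 0 of 24 measured collagens were 2-fold higher (2.47% over all genes) and 0 lower (3.51%), and in 2KR against RR 0 of 23 were higher (2.67%) and 0 lower (3.67%). In 3KR against RR, 6 of 24 were higher (11.4%) and 0 lower (9.73%). The 6 were Col12a1 at 1.87, Col18a1 at 1.59, Col1a1 at 1.23, Col4a1 at 1.15, Col5a2 at 1.12 and Col5a1 at 1.07 on the log2 scale. All 7 measured fibrillar collagens lay above RR, with a median of 0.86. In 3KR, 4 of 10 smooth muscle markers (median 0.89), 3 of 11 fibroblast markers (0.70) and 2 of 5 pericyte markers (0.04) were also at least 2-fold above RR. Of the adipocyte markers, 7 of 8 were below RR (-1.92). So was 1 of 11 fibroblast markers, Fbln1, at 23.3 FPKM in 3KR and 138 in RR. The fibroblast list summed to 139.7 FPKM in 3KR and 202.1 in RR. The part of these in the collagen difference was not tested. 3KR also had the lowest estimated depth.

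Each refed library was compared with its deficient counterpart, which differs in day as well as in diet. In 1KR against 1K, 8 of 24 collagens were at least 2-fold higher (6.57% over all genes) and 0 lower (7.79%). The higher genes included Col1a1 at 2.55, Col15a1 at 2.49, Col3a1 at 2.41 and Col1a2 at 1.68, and the fibrillar median was 1.26. With a floor of 5 FPKM, 5 genes were higher and the fibrillar median was 2.04. In 2KR against 2K, 5 of 27 were higher (13.5%) and 4 lower (19.0%), among them Col1a1 at 1.30 and Col14a1 at 1.24 on one side and Col7a1 at -3.60 and Col18a1 at -2.45 on the other. In 3KR against 3K, 2 of 29 were higher (13.3%), Col1a1 at 1.81 and Col15a1 at 1.56, and 4 lower (11.7%), Col7a1, Col28a1, Col13a1 and Col20a1 between -2.02 and -1.25. Scaling to protein-coding genes gave 5 higher and 4 lower there. These comparisons share their deficient libraries with those at day 28 above.

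The deficient libraries of day 28 were then set against the 6 libraries on the normal diet at collection, a grouping chosen after the values had been seen and given without a test. For 5 of 26 collagens, Col15a1, Col1a1, Col3a1, Col6a4 and Col6a5, 1K, 2K and 3K all lay below the 6 others (4.81% of all genes), and for 1, Col7a1, all lay above (5.81%). Without 3K, the deficient libraries lay below for 9 of the 26. Without 1K, they lay above for 3. With 1 deficient library fewer the groups separate more easily for any gene, and the matching shares of all genes are not given.

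Ratios within a library, which a common scaling factor cannot change, were computed for 9 pairs of genes, chosen after the values had been seen and given without a test. In 6 of them 1K, 2K and 3K did not overlap the 6 other libraries. The share of all gene pairs that do so was not computed. Several pairs reuse a gene, and Col1a1, Col3a1 and Col15a1 each separate these libraries by themselves. Col1a1 to Col1a2, chains that enter collagen I in a fixed proportion, stood at 0.461, 0.518 and 0.577 in 1K, 2K and 3K and between 0.849 and 1.10 in the 6 others. Col6a3 to Col6a1 stood at 0.264, 0.281 and 0.280 in the deficient libraries and between 0.535 and 0.813 in the others. Col4a1 to Col3a1 was 1.24, 1.09 and 1.44 against 0.289 to 0.558, so that Col4a1 exceeded Col3a1 in 1K, 2K and 3K and in none of the 6 others. Col4a1 to Col1a1 was 7.04, 7.10 and 8.09 against 1.44 to 1.83. Col18a1 to Col15a1 was 5.10, 12.9 and 4.76 against 0.437 to 1.77, and Col6a1 to Col6a2 was 1.09, 1.13 and 1.01 against 0.873 to 0.979. The other 3 pairs overlapped: Col1a1 to Col3a1 (0.153 to 0.178 against 0.172 to 0.324), Col5a1 to Col5a2 (1.91 to 2.51 against 1.51 to 2.03) and Col4a1 to Col4a2. The part of the organ RNA of 2K and 3K in these ratios was not tested.

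**Figure D3:**
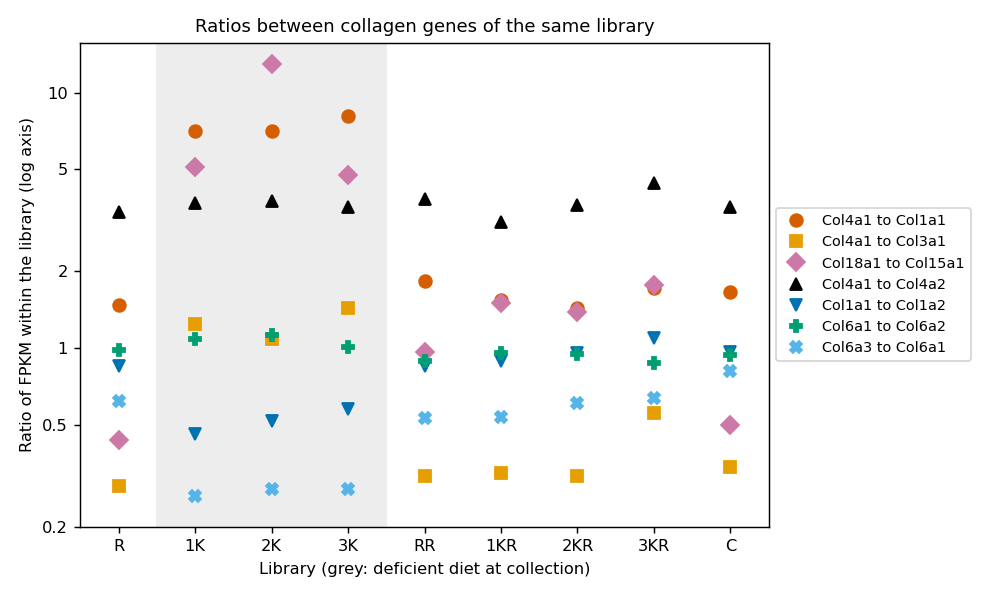
Ratios of FPKM between collagen genes of the same library on a log axis, for the 9 libraries, with the 3 libraries on a deficient diet at collection shaded. Col1a1 to Col1a2 and Col6a3 to Col6a1 are lower, and Col4a1 to Col1a1 and Col4a1 to Col3a1 higher, in the shaded libraries, while Col4a1 to Col4a2 stays between 3.11 and 4.42.

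The stretches of 250 bases upstream of the start site are shown for 4 of the genes on which this grouping turned, those with an entry and no annotated exon in the stretch. They are from RefSeq on GRCm38.p6, written 5′ to 3′ on the gene's strand, with every match on either strand to a CCAAT box (letters CCAAT), a GC box (letters GGGCGG) or a TATA box (letters TATAAA) in capitals. Col3a1 is chr1:45311288-45311537 (plus strand), Col15a1 is chr4:47207762-47208011 (plus strand), Col6a5 is chr9:105960644-105960893 (minus strand) and Col7a1 is chr9:108953336-108953585 (plus strand).
Col3a1: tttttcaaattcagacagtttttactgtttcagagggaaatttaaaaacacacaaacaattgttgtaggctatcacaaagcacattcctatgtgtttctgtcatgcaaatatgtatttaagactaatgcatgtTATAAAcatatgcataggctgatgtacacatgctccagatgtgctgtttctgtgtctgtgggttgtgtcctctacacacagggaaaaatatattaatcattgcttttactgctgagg
Col15a1: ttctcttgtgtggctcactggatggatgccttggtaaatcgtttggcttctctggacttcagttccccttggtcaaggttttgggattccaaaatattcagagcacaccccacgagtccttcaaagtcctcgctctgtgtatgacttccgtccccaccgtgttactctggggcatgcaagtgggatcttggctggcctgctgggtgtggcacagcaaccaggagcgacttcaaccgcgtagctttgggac
Col6a5: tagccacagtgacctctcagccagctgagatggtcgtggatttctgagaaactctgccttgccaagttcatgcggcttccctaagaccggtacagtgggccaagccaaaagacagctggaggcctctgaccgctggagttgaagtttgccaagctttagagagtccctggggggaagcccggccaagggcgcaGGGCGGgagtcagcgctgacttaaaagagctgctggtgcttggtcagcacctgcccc
Col7a1: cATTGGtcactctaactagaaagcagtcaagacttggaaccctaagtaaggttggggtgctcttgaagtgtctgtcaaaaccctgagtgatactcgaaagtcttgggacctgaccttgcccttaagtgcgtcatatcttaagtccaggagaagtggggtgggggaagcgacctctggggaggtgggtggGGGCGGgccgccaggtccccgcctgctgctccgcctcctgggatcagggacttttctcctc
The Col3a1 stretch held 1 TATA box match, 117 to 112 bases before the start, Col6a5 and Col7a1 held 1 GC box match each, Col7a1 held 1 CCAAT box match on the opposite strand, and the Col15a1 stretch held no match. Among 38 stretches of 35 collagens, a CCAAT box match was found in 13, a GC box match in 22 and a TATA box match in 5. Over 32851 stretches of all genes the shares were 33.8%, 32.7% and 12.4%. A match describes letters in this window and not a bound site. Col1a1, Col2a1, Col4a3, Col5a2, Col9a3, Col12a1, Col14a1, Col22a1 and Col26a1 had no entry.

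In the 8 DSS libraries each combination of day and deficiency occurs once, which allowed a test across 17577 genes with limma. For each day, an effect is the mean of the 2 libraries with a deficiency minus the mean of the 2 without it, and the error has 2 degrees of freedom, left by taking the interaction of both deficiencies as 0. No collagen passed a limma adjusted p of 0.05 for any of the 6 effects tested. For tryptophan and niacin deficiency at day 28 (0.188% of all genes called), the effect on Col18a1 was 2.53 on the log2 scale (SE 0.42, 95% interval 1.4 to 3.67, limma adjusted p = 0.123), and that on Col7a1 was 2.46 (SE 0.57, 0.94 to 3.98, limma adjusted p = 0.162). At an unadjusted p under 0.05, 3 of 26 collagens were higher there, with Col13a1 as the third at 1.22 (SE 0.41). The share of all genes at that unadjusted level was not computed, and the 0.188% refers to the adjusted threshold. The 2 libraries with this deficiency at day 28, 2K and 3K, are also the 2 with acinar marker sums of 37070 and 46900 FPKM, so this effect and that of the organ RNA cannot be told apart.

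For methionine deficiency at day 28 (0.0% called), 21 of 26 estimates were negative, with a median of -0.41, against 0.021 over all genes. Col3a1 was at -1.52 with an interval from -3.93 to 0.89, and the 2 deficient libraries averaged in that effect were at 23.7 FPKM (1K) and 111 (3K). At day 33, 20 of 26 estimates were positive for either deficiency (0.0% called for methionine and 0.0% for tryptophan and niacin). Their medians were 0.24 and 0.39, against 2.8e-16 and 0.0018 over all genes. Shares of all genes by sign were not computed. Both effects of day 33 include 3KR, whose median collagen difference from RR was 0.61, against -0.09 in 1KR and 0.08 in 2KR. The difference between days was not called for a collagen either, with 0.0% of genes called for methionine and 0.148% for tryptophan and niacin, where Col18a1 and Col7a1 were lower at an unadjusted p under 0.05. The remaining 4 effects had 0 collagens at that unadjusted level, for which no share of all genes was computed.

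**Figure D4:**
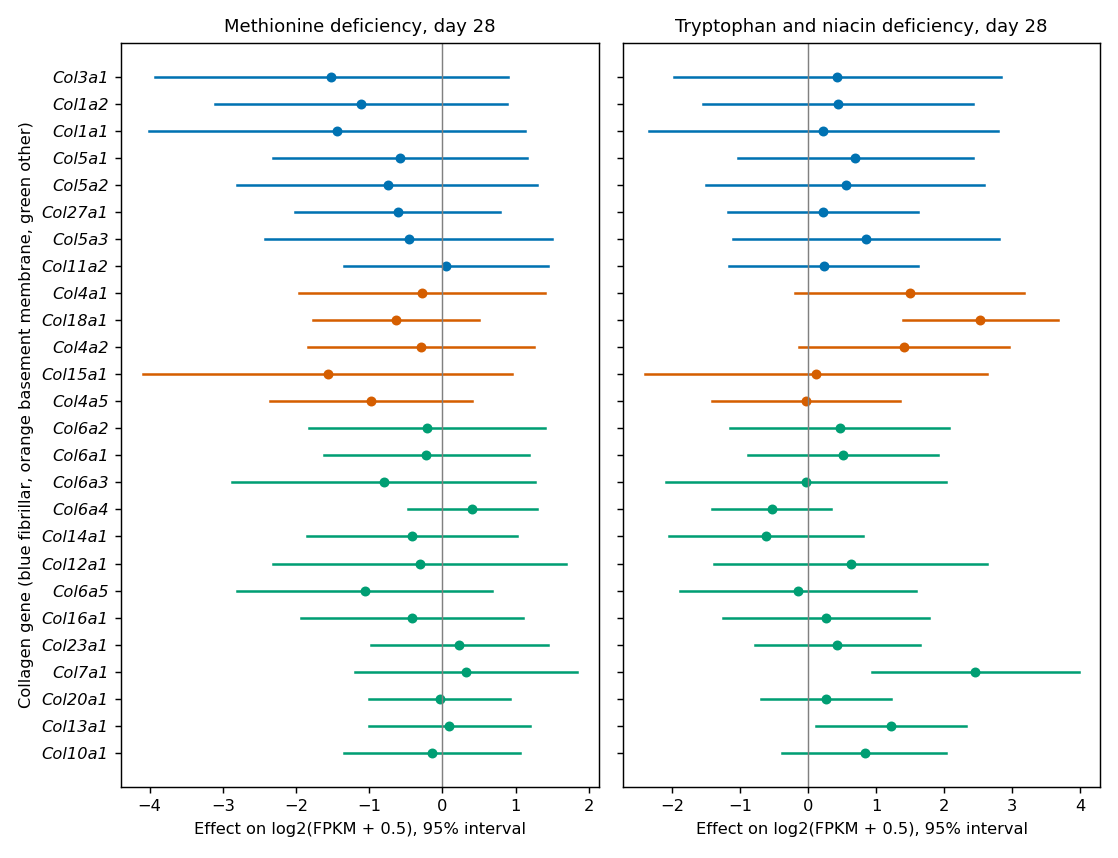
Effects of methionine deficiency (left) and of tryptophan and niacin deficiency (right) at day 28 on log2(FPKM + 0.5) of 26 collagen genes, as limma estimates (points) with unadjusted 95% intervals (lines), coloured by class. In the right panel the intervals of Col18a1 and Col7a1 run from 1.4 to 3.67 and from 0.94 to 3.98, and no effect passed the adjusted threshold. 2K and 3K, which carry the effect in that panel, also hold the high pancreatic RNA.

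The enzymes and chaperones of collagen synthesis did not move as 1 block. In 1K against R, 1 of 24 measured genes of the list was at least 2-fold higher (7.17% over all genes) and 8 lower (8.63%). The median log2 difference was -0.62, beside the 19 of 28 collagens that were lower. The higher gene was P4hb, the beta subunit of prolyl 4-hydroxylase and a general disulfide isomerase, at 551 FPKM in R, 2192 in 1K, 1177 in 2K, 1200 in 3K, 1245 in RR, 1593 in 1KR, 1158 in 2KR, 509 in 3KR and 434 in C. Serpinh1, the collagen-specific chaperone HSP47, was at 25.8 FPKM in R, 6.16 in 1K, 7.85 in 2K, 12.4 in 3K, 23.3 in RR, 20.9 in 1KR, 20.4 in 2KR, 22.7 in 3KR and 29.2 in C. Of 24 genes of the list averaging 1 FPKM or more, 3 (Serpinh1, Pcolce and Colgalt1) were lower in 1K, 2K and 3K than in all others, against 4.81% of all genes, and 1 (Mia3) was higher, against 5.81%. Ppib, a prolyl isomerase, ranged from 106 to 200.5 FPKM, and Mia3, which helps export procollagen from the endoplasmic reticulum, was at 51.5, 67.8 and 52.9 FPKM in 1K, 2K and 3K and between 44.2 and 47.0 in the others.

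Small proteoglycans that coat fibrils were lower in 1K than in R as well, 5 of 8 at least 2-fold (median -1.18), against 8.63% of all genes. Dcn stood at 160 FPKM in R and 61.7 in 1K, Bgn at 85.6 and 30.4, and Lum at 23.1 and 3.01, while Podn was at 14.2 and 16.2. Of the basement membrane partners, 7 of 16 were lower in 1K (8.63% over all genes) and 2 higher (7.17%), with a median of -0.83. Sparc stood at 130 FPKM in R and 23.2 in 1K, Nid1 at 17.6 and 7.17, Lamb1 at 17.1 and 8.93, and Agrn at 26.1 and 42.2. In 3K against R, 3 of 17 partners were higher (11.6% over all genes) and 1 lower (13.4%), near these shares. In 3KR against RR, 6 of 17 were higher (11.4%) and 1 lower (9.73%).

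Of the receptors for collagen, 2 of 8 measured were at least 2-fold lower in 1K than in R, against 8.63% of all genes, and 0 higher, against 7.17%. Itgb1, the shared beta 1 integrin chain, was at 81.6 FPKM in R and 81.4 in 1K, Ddr1 at 22.6 and 28.9, Itga1 at 14.7 and 10, and Ddr2, a receptor tyrosine kinase for fibrillar collagen, at 15.7 and 4.5. Of 14 TGF-beta signalling genes, 1 was higher and 1 lower in 1K, near the shares over all genes, with Smad4 at 111 FPKM in R and 252 in 1K, Tgfbi at 67.0 and 47.0, Smad3 at 35.2 and 27.2, and Smad7 at 36.5 and 28.0.

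Of the 8 collagen-degrading enzymes, 4 were at least 2-fold higher in 2K than in R (14.7% of all genes), 5 in 3K than in R (11.6%) and 5 in 3KR than in RR (11.4%). In 1K, 2 of 7 measured were lower than in R (8.63%). The part of the organ RNA in these values was not tested. Mmp2, a gelatinase, was at 25.8 FPKM in R, 10.2 in 1K, 35.2 in 2K, 55.7 in 3K and 42.3 in 3KR, Mmp14 at 17.7, 13.2, 36.2, 45.1 and 28.7, Ctsb at 201, 243, 262, 243 and 145, with Ctsb lower in 3KR than in RR (228), and Ctsl at 54.6, 24.8, 783, 292 and 66.6. The neutrophil and interstitial collagenases stood apart in 3KR: Mmp8 was at 32.6 FPKM there and at most 4.37 elsewhere, Mmp13 at 15.6 and at most 4.19, and the gelatinase Mmp9 at 54.7 and at most 7.96. Mmp8, Mmp9 and Mmp13 were singled out after their values had been seen.

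**Figure D5:**
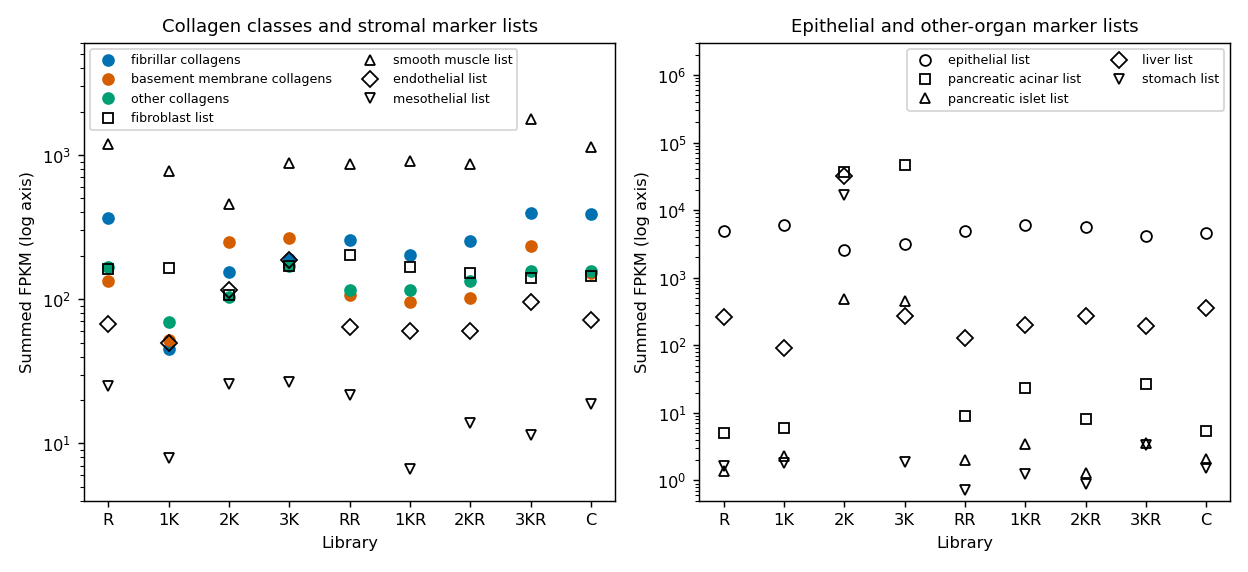
Summed FPKM on log axes of the 3 collagen classes with the fibroblast, smooth muscle, endothelial and mesothelial marker lists (left) and of the epithelial, pancreatic, liver and stomach marker lists (right) in the 9 libraries. In 1K all 3 classes sit at their lowest (44.9, 52.1 and 69.4 FPKM), and the acinar list reaches 37070 and 46900 FPKM in 2K and 3K.

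The genes whose profile over the 9 libraries lay nearest to the mean of the 8 fibrillar collagens were Fstl1, Eml1, Dpt, Sparc, Vim, Hspg2, Mid2 and Fbn1, among 10532 other genes averaging 5 FPKM or more. Likeness was the root mean square of differences between centred log2 profiles, which was 0.106 for Fstl1 and 0.244 for Fbn1. Fstl1 ran from 3.19 FPKM in 1K to 17.2 in 3KR. For the mean of Col4a1 and Col4a2 the nearest were Mmp2 (0.139), Trp53i11, Cep170, Plxnd1, Zeb1, Ints6l, Cald1 and Tnc. By the same measure, among the genes that make up the fibrillar mean, Col5a2 lay 0.167, Col1a1 0.559 and Col11a2 0.924 from it. Of the collagens outside it, Col6a2 lay 0.308, Col18a1 1.12 and Col7a1 1.49 away. All profiles share the same 9 libraries and their scaling.

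Because the diets lacked methionine and tryptophan, the coding sequences were read for these residues on GENCODE M21 transcripts. Methionine codons made up a median of 1.48% of the codons of the 44 collagens, against 2.26% over 21475 coding genes, and 43 of 44 lay below that value. Tryptophan codons made up 0.407% against 1.11%, with 42 of 44 below. Col7a1 had the lowest methionine share of the 44 at 0.408% (12 of 2944 codons) and a tryptophan share of 0.747%, above the collagen median, and Col9a3 had 0 tryptophan codons. Glycine made up 24.2% of collagen codons against 6.03%. All 44 collagens were among the 63 genes with at least 20 uninterrupted glycine-X-Y triplets. The longest run was 344 triplets in Col3a1 and 338 in Col1a1 and Col1a2, against 40 in Col4a1, whose helix is interrupted, and 30 in Col15a1 and Col18a1.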

How the data were processed

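Per the labels, RNA was extracted with ISOGEN, depleted of ribosomal RNA (Ribo-Zero Plus) and made into stranded TruSeq libraries with no bead purification of mRNA. Tools named in the submitters' processing notes are HISAT2, without a version, and Cuffdiff 2.2.1, with the build GRCm38. The values, deposited by the authors and named FPKM per the file headers, were used as deposited, and the sources used here do not name the annotation. Summed FPKM ran from 597541 (C) to 973592 (3KR). Between 68.7% and 73.7% of low values came within 0.1 of a whole read at the estimated depth, so whole reads were not recovered and no count test was run.

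Pairs of libraries were compared as log2(FPKM + 0.5) with a floor of 1 FPKM in either library and a 2-fold difference, in 12 pairs without a test. Genes averaging 1 FPKM or more in the 8 DSS libraries were fitted with limma 3.58.1 (R 4.3.3) with a mean-variance trend and Benjamini-Hochberg adjustment over 17577 genes. Alternatives were pseudocounts of 1 and 0.1, no floor or a floor of 5 FPKM, no mean filter or a mean of 5, scaling by the median of ratios over 7809 genes or to protein-coding FPKM outside the organ lists, a fit without the trend, diet effects common to both days, and leaving out each library. The scalings shift the log2 values of a library by -0.14 to 0.08 and by -0.33 to 0.26. Every collagen with a mean of at least 1 FPKM was named with values and the others with their highest value. From each pathway list the 4 genes with the highest mean were named, and the 8 genes nearest to each reference profile. The members, gene lists and marker lists were chosen with earlier results of these data known. Gene models and coding sequences are from GENCODE M21, in which 241 genes of the table were not found, and upstream stretches from RefSeq on GRCm38.p6.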

Additional observations from a re-analysis of the deposited data

How the results depend on the processing

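Of 144 alternative counts for the pairs of libraries, 123 were within 1.5 times the reported one and 21 were not. All 88 alternatives of the fit gave 0 collagens called, including those that left out a library (0 to 0). No paired analysis was possible because each group holds 1 library, so that groups share fewer than 2 replicate numbers. In R against C, higher genes numbered 1 with no floor and with either scaling, and lower ones 0 with a pseudocount of 1 or a floor of 5. For RR, lower genes numbered 1 (floor of 5) and 7 (protein-coding scaling) against C, and 0 (pseudocount 1), 0 (floor of 5) and 3 (protein-coding scaling) against R. In 1K against R the higher gene was lost (0) with a pseudocount of 1, a floor of 5 and protein-coding scaling, while 2K against R had 13 lower genes with that scaling. 3KR against RR had 2 lower with a pseudocount of 0.1, and 1KR against 1K had 5 higher with a floor of 5. 2KR against 2K had 2 lower with a pseudocount of 1 and with a floor of 5. 3KR against 3K had 5 higher with protein-coding scaling, 7 lower with a pseudocount of 0.1 and 1 lower with a floor of 5. C was lowest for 0 genes with median-of-ratios scaling, a mean of 5 or without 2K and 3K, and for 2 with no filter, and highest for 2 with a mean of 5 and 9 without 3KR. The deficient libraries were below for 9 genes without 3K, and above for 2 with median-of-ratios scaling, 0 with a mean of 5 and 3 without 1K. The alternatives for the 3 deficient libraries, for the lowest library and for leaving libraries out of the comparison with C were chosen after seeing the data. 1K stayed the lowest library for 13 to 25 collagens under the 5 alternatives run for that count. The ends of this range, 13 with a mean of 5 and 25 with no filter, are out of fewer and of more collagens than the 26. Causes of these changes were not tested, and the shares of all genes under these alternatives are not given. Precision is limited by 1 library per group: the interval of the methionine effect on Col3a1 at day 28 ran from -3.93 to 0.89.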
